A study of Mus musculus with 4 samples.

Results

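The let-7 family and miR-98 were described in small RNA libraries of cultured mouse synovial fibroblasts. Members were the rows whose name, without the species prefix, the arm mark and a copy number, was let-7a, let-7b, let-7c, let-7d, let-7e, let-7f, let-7g, let-7i or miR-98 (listed as mmu-let-7a, mmu-let-7b, mmu-let-7c and so on to mmu-miR-98). This gave 16 rows of the 590 miRNAs listed in any library, 9 main arms and 7 star arms (let-7a*, let-7b*, let-7c-1*, let-7d*, let-7f*, let-7g* and let-7i*). Star arms of let-7e and miR-98 were not listed in any library, so they were not analysed here. The star arm is the strand of the hairpin that is usually the rarer one.

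The fibroblasts came from hind joints of 8-week-old mice of the strain label CBA/J * C57BL/6/J and were used at passage 4. TghuTNF mice carry a human TNF transgene and serve as a model of arthritis, and WT littermates without it were the controls. There were 2 cultures of each genotype, biological replicates per the series' design, and no group received a treatment. The labels do not name the promoter of the transgene or say how many mice each culture held. They put the CD90.2-positive share of cells above 80 to 90% and the Mac1-positive share below 1%, so other cells were not fully removed.

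let-7 miRNAs are made from hairpins that Drosha and Dicer cut, and the RNA-binding protein LIN28 blocks this processing in early cells. They bind mRNAs through the seed (bases 2 to 8), and their best known targets include Ras genes, Hmga2, Myc and Lin28 itself. They are abundant in most differentiated cells, fibroblasts included, where they restrain growth.

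All 9 main arms share 1 seed and have the same length of 22 bases. Whether members of different sequence were read with equal efficiency was not tested, so levels compared between members are levels of matches. The mature sequences from RefSeq (GRCm38.p6) are shown 5′ to 3′ because the members differ by so few bases that 1 read can be matched to several of them. The first line gives let-7a with its seed in capitals, and in the other lines capitals mark the bases that differ from let-7a.
let-7a: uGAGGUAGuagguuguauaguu
let-7b: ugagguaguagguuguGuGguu
let-7c: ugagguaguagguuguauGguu
let-7d: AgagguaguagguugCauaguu
let-7e: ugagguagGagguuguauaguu
let-7f: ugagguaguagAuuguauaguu
let-7g: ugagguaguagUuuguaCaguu
let-7i: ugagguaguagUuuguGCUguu
miR-98: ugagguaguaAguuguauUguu
Counted from 1 at the 5′ end, let-7c differs from let-7a by A19G, let-7e by U9G and let-7f by G12A. let-7b has A17G and A19G, let-7d U1A and U16C, let-7g G12U and U18C, and miR-98 G11A and A19U. let-7i is the farthest from let-7a with 4 substitutions. Of the 36 pairs of members, 4 differ at 1 base (let-7a with let-7c, let-7e or let-7f, and let-7b with let-7c) and 10 at 2 bases.

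The members come from 12 hairpins on 7 chromosomes, all within annotated genes of GENCODE M21 (GRCm38). let-7a, let-7c and let-7f each have 2 hairpins with the same mature sequence, which a count of the main arm cannot tell apart. Mirlet7a-1, Mirlet7f-1 and Mirlet7d lie together and overlap exon sequence of the long non-coding RNA gene 6720427I07Rik (chr13:48538179-48538272, chr13:48537829-48537917 and chr13:48536012-48536114, minus strand). Mirlet7c-2 and Mirlet7b overlap exon sequence of Lncppara (chr15:85706603-85706697 and chr15:85707319-85707403), and Mirlet7i overlaps an exon of the transcribed pseudogene D630033A02Rik (chr10:122985640-122985724). Mirlet7g is in an intron of Wdr82 (chr9:106178840-106178927), and Mirlet7f-2 and Mir98 are in intron sequence of the ubiquitin ligase gene Huwe1 (chrX:151912346-151912428 and chrX:151913214-151913321). The other hairpins have neighbours of another family: Mirlet7a-2 lies near Mir100 (chr9:41536716-41536811), Mirlet7c-1 near Mir99a in an intron of Mir99ahg (chr16:77599657-77599750), and Mirlet7e near Mir125a in an intron of Spaca6 (chr17:17830352-17830444).

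Total matches of reads to mature miRNAs were 16680860 to 27362819 per library, of which 66.0% to 70.5% were perfect. Matches with 2 mismatches made up 8.21% to 8.73% in 3 libraries and 11.7% in TghuTNF replicate 2. A count of 0 allows up to 3 counts, or 0.110 to 0.180 counts per 1000000 matches (CPM), and intervals and floors cover counting error only, since reads carry no molecular identifiers. The summed level of 7 mesenchymal marker miRNAs was 295713 to 307369 CPM in WT and 293081 to 316288 in TghuTNF. Markers in this list went both ways. By perfect matches miR-143 stood at 99950 and 96655 CPM in WT and 78966 and 84387 in TghuTNF. The rarer miR-145 stood at 81.1 and 79.5 in WT and 82.5 and 148 in TghuTNF. Lists for other cell types lay far below the mesenchymal sum. All 5 blood cell markers together were at 6.39 to 16.1 CPM in WT and 21.6 to 28.8 in TghuTNF. The 2 endothelial markers were at 108 to 127 and 66.7 to 68.8, and the 6 epithelial markers at 67.6 to 70.7 and 30.7 to 36.7. The 4 muscle markers were at 2426 to 3008 and 1782 to 2054, and the 5 neural markers at 278 to 324 and 439 to 458. The genotypes did not overlap for any of these other lists. Their sums were not tested, and 60.6% of the 442 tested miRNAs did not overlap either. Single markers carried some of these sums. The lower epithelial sum lay in miR-203 (59.0 and 62.4 CPM in WT, 25.2 and 19.8 in TghuTNF), while miR-200a, miR-200b, miR-200c and miR-141 were higher in both TghuTNF libraries, miR-200c at 4.26 and 4.00 against 5.03 and 5.15. The blood cell sum was mostly miR-142-3p (12.7 and 5.14 against 20.8 and 16.3). By all matches no marker was missing from all libraries, but the neural marker miR-124 had 0 perfect matches in all 4. In the same list miR-129-5p stood at 334 and 270 CPM of perfect matches in WT and 491 and 436 in TghuTNF. The part of these differences in the results below was not tested, and in bulk cultures fewer cells of a type and less RNA per cell cannot be told apart.

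The family took about as large a part of the miRNA reads in arthritic as in healthy fibroblasts. The main arms took 35.0% and 32.2% of the perfect matches of WT replicates 1 and 2, and 35.2% and 32.9% of those of TghuTNF replicates 1 and 2, with exact 95% binomial intervals at most 0.055 percentage points wide. The mean was 33.6% ± 2.00 in WT and 34.1% ± 1.58 in TghuTNF (SD, n = 2 each). The genotypes overlapped, and the difference of 0.46 percentage points was smaller than the spread between replicates. Star arms made up 0.035% to 0.059% of all matches of the family.

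let-7c, let-7b, let-7a and let-7f made up most of the family. By all matches they ranked 2, 4, 5 and 6 of the 590 listed miRNAs, while let-7i ranked 20, let-7e 26, let-7g 35, let-7d 39 and miR-98 99. The ranks by perfect matches were 2 for let-7c, 3 for let-7b, 5 for let-7a and 7 for let-7f. For let-7i the rank was 17, for let-7e 22, let-7g 29, let-7d 39 and miR-98 96. By perfect matches, scaled with TMM to CPM, the order over the 4 libraries was let-7c (136717 to 147338 CPM), let-7b (86009 to 96006), let-7a (44130.2 to 49670.1), let-7f (29349 to 38737), let-7i (7204 to 10518), let-7e (5332 to 8353), let-7g (4300.4 to 4454), let-7d (2160.3 to 2568) and miR-98 (158 to 204). Only let-7i and let-7e overlapped as neighbours in this order.

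**Figure D1:**
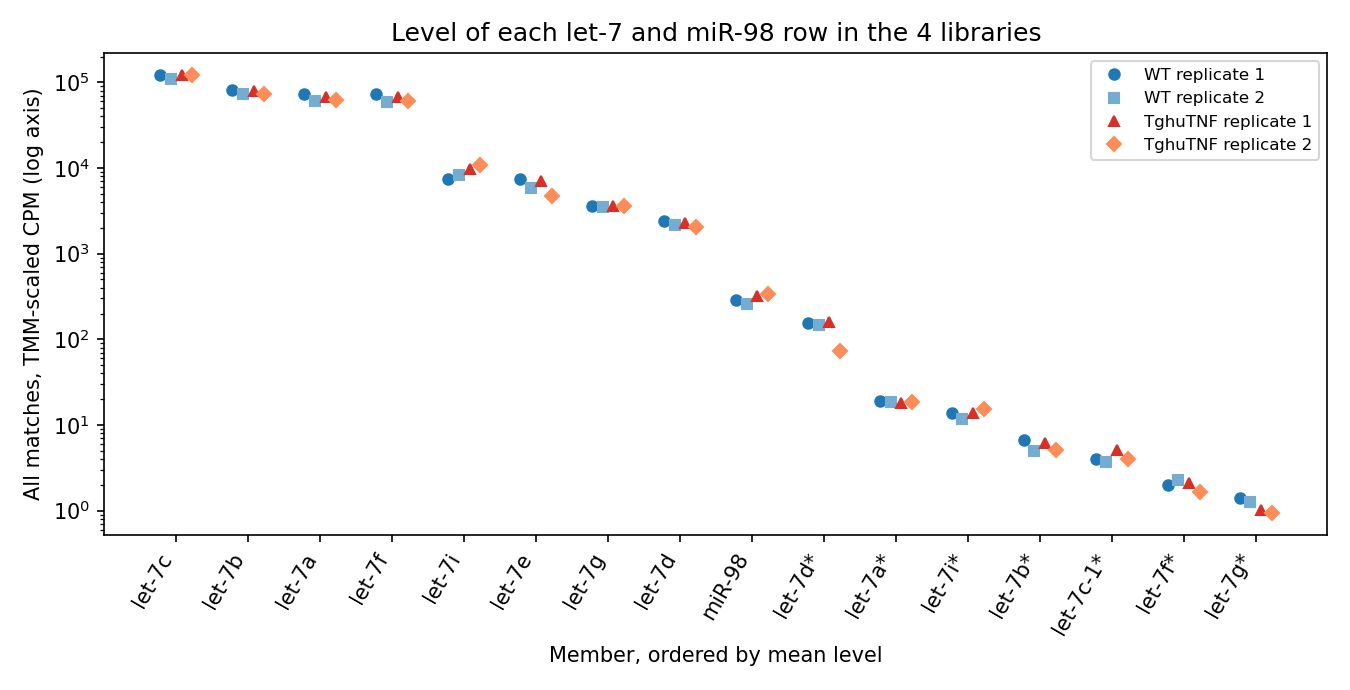
Level of the 16 let-7 and miR-98 rows in each of the 4 libraries, as TMM-scaled CPM of all matches on a log axis (points: 1 library each). let-7a, let-7b, let-7c and let-7f lie far above the rest, and the level falls to 0.93 to 1.40 CPM for let-7g*. let-7d* stands at 73.6 CPM in TghuTNF replicate 2 against 149 to 159 in the other libraries.

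let-7a and let-7f, which differ at base 12, had almost the same totals. In WT replicate 1 let-7a had 1212056 matches and let-7f 1205248, and over the 4 libraries the let-7f total was 98.1% to 99.4% of that of let-7a. Only 47.2% to 51.4% of the matches of let-7a and 32.2% to 37.0% of those of let-7f were perfect. The 1-mismatch matches of let-7a exceeded the perfect matches of let-7f 1.19- to 1.27-fold, and those of let-7f exceeded the perfect matches of let-7a 1.11- to 1.15-fold, in all 4 libraries, so either member's total had room for every perfect read of the other. The perfect matches of both together were 81.4% to 86.1% of the let-7a total.

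The other single-base pairs left less room for shared reads in at least 1 direction. The 1-mismatch matches of let-7a were 0.255 to 0.318 times the perfect matches of let-7c, and those of let-7c 0.411 to 0.534 times the perfect matches of let-7a. Those of let-7b were 0.094 to 0.107 times the perfect matches of let-7c, and those of let-7c 0.218 to 0.287 times the perfect matches of let-7b. For let-7e, which differs from let-7a at base 9, they were 0.026 to 0.036 times the perfect matches of let-7a. In the other direction the 1-mismatch matches of let-7a were 4.91 to 6.98 times the rarer perfect matches of let-7e, so no limit on that sharing can be set. The authors matched with a hash length of 9, and which bases the hash covers was not stated.

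The matches of the other main arms were mostly perfect, apart from miR-98. The perfect share was 80.2% to 85.9% for let-7c, 78.3% to 83.9% for let-7b, 80.1% to 86.3% for let-7g, 76.4% to 81.7% for let-7e and 71.0% to 75.0% for let-7d. let-7i had 64.7% to 70.8% and miR-98 40.8% to 45.0%, against medians of 65.5% to 68.4% over the other miRNAs with at least 100 matches. miR-98 thus had more 1-mismatch than perfect matches in every library (2390 against 1984 in WT replicate 1), although no other member is closer to it than 2 bases. miR-1961, whose RefSeq sequence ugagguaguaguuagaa holds the let-7 seed, had 825 to 1348 matches per library but 0 with 0 or 1 mismatch, and most of its matches were in no mismatch class (823 of 825 in WT replicate 1). In TghuTNF replicate 2, 460 of its 1070 matches had 2 mismatches, against 2 to 14 matches in the other libraries. miR-202-3p, a more distant relative, had 1 match in each TghuTNF library and 0 in the WT libraries.

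**Figure D2:**
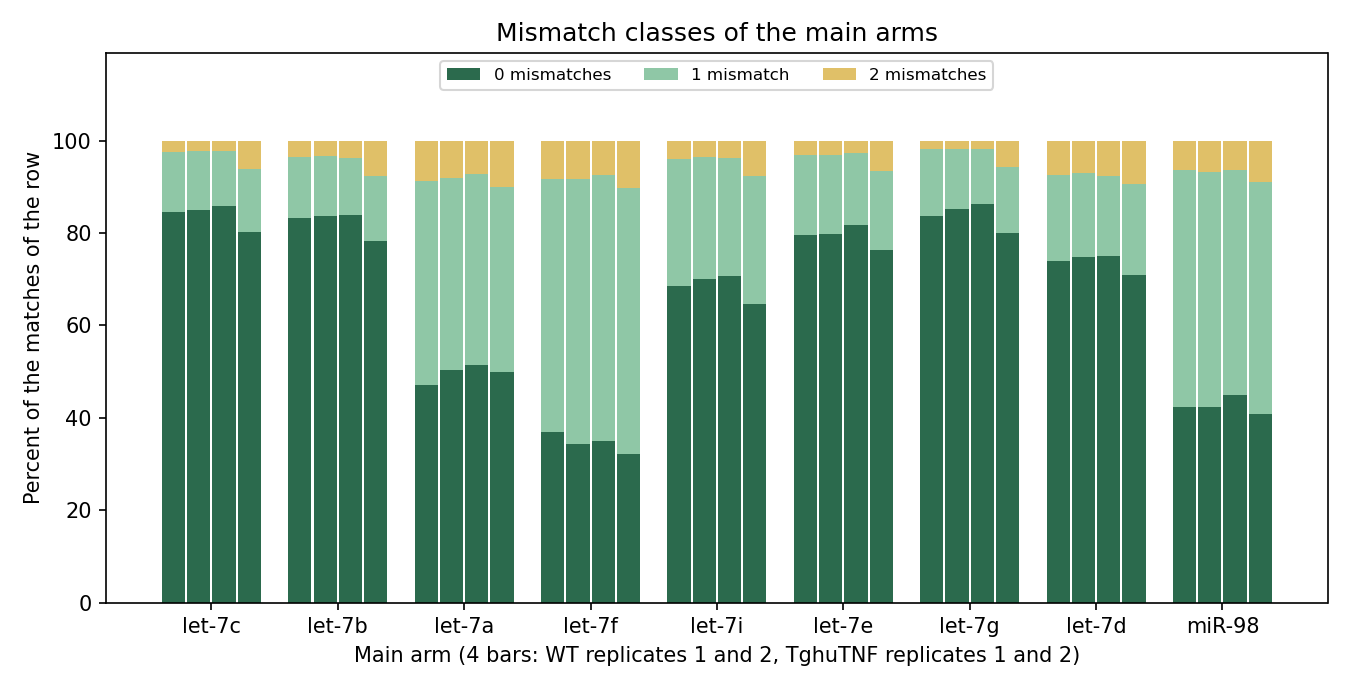
Percent of the matches of each main arm with 0, 1 and 2 mismatches, with 4 bars per member for WT replicates 1 and 2 and TghuTNF replicates 1 and 2. let-7a, let-7f and miR-98 have the lowest perfect shares, and the 2-mismatch part is largest in TghuTNF replicate 2 for all 9 members.

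No member's share of perfect matches passed the test of genotype, and 1 library stood apart in the 2-mismatch class. In TghuTNF replicate 2 the 2-mismatch share was the highest of the 4 libraries for 9 of 9 main arms. For let-7c it was 2.45% and 2.21% in WT, 2.26% in TghuTNF replicate 1 and 6.22% in TghuTNF replicate 2, and for let-7g 1.81%, 1.69%, 1.67% and 5.76%. Of 13 members with at least 100 matches in every library, 0 changed their odds of a perfect match (limma, adjusted p over 267 miRNAs), and 0 had an unadjusted p under 0.05. limma called 0% of all 267, of which 9 had an unadjusted p under 0.05. Groups did not overlap for 0 members, against 34.1% of all tested.

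Within the family, let-7c and let-7a held overlapping parts in both genotypes. By perfect matches let-7b and let-7d held smaller parts in both TghuTNF libraries, and let-7i and miR-98 larger ones, without a test. let-7c made up 41.3% and 42.4% of the perfect matches of the family in WT and 42.3% and 44.2% in TghuTNF. let-7b made up 27.2% and 27.8% in WT and 26.8% and 26.1% in TghuTNF, and let-7a 14.1% and 13.7% against 14.2% and 14.0%. These shares have exact 95% binomial intervals no wider than 0.096 percentage points.

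let-7i made up 2.04% and 2.63% in WT and 2.80% and 3.19% in TghuTNF. miR-98 made up 0.0488% and 0.0490% against 0.0583% and 0.0617%. Both TghuTNF libraries lay above both WT libraries for this pair, and below them for let-7b and let-7d (0.73% and 0.74% against 0.69% and 0.65%). The other members overlapped. By all matches let-7b overlapped too (21.8% to 22.7% in WT, 21.6% to 21.9% in TghuTNF), while let-7d, let-7i and miR-98 did not. These shares are a description: with 2 against 2 libraries an exact permutation test cannot give a p below 0.33. For scale, the CPM of perfect matches did not overlap between genotypes for 60.3% of the 380 tested miRNAs. By that CPM, let-7b and let-7d overlapped.

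let-7f against let-7a, the pair that differs at base 12, was highest in WT replicate 1. The ratio of their perfect matches was 0.780 and 0.677 in WT replicates 1 and 2, and 0.676 and 0.635 in TghuTNF replicates 1 and 2. WT replicate 2 and TghuTNF replicate 1 were nearly equal, and the WT libraries differed by more than this gap.

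**Figure D3:**
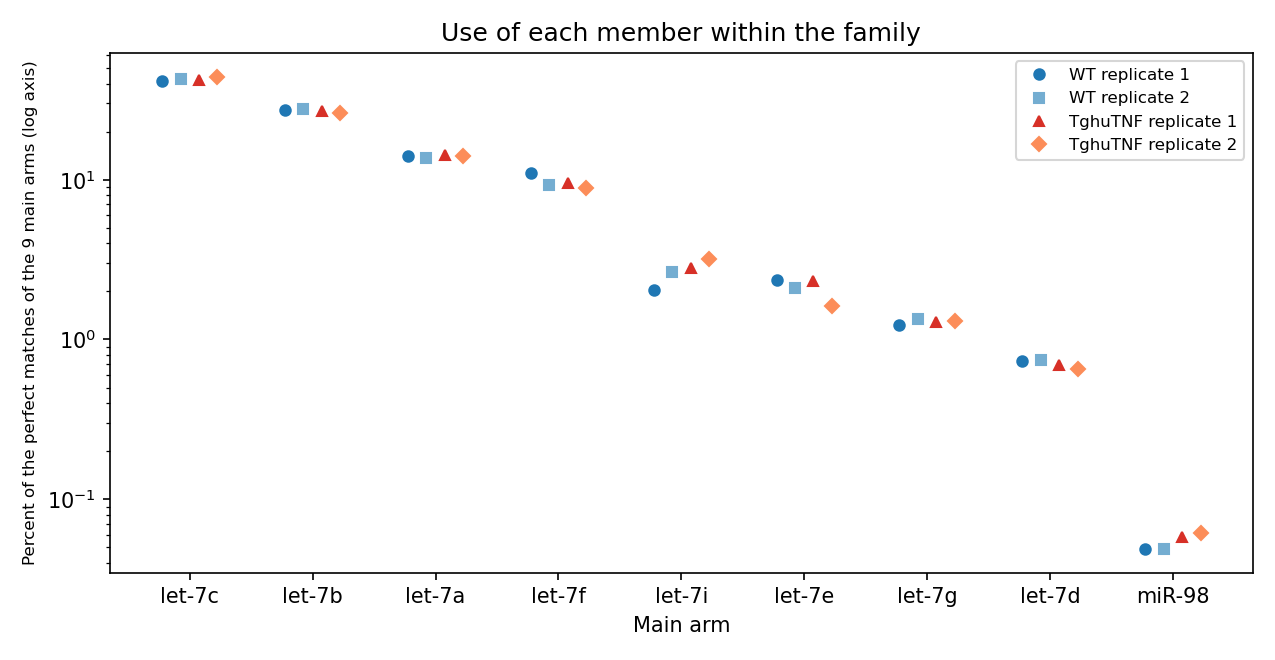
Percent of the perfect matches of the 9 main arms that each member took, on a log axis, with 1 point per library. The order from let-7c to miR-98 is the same in all libraries apart from let-7i and let-7e, which change places between WT replicate 1 and the rest. let-7i and miR-98 are higher in both TghuTNF libraries than in both WT libraries.

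No member passed the test of genotype. Of the 16 members, 0 rose and 0 fell by all matches (edgeR's quasi-likelihood test with Benjamini-Hochberg adjustment over 442 miRNAs), while 13.3% of all tested miRNAs were called. Of the 13 members that passed the filter on perfect matches, 0 rose and 0 fell, against 13.2% of 380 tested. At an unadjusted p under 0.05 there was 1 member, let-7i, by either count. DESeq2 also called 0 members by either count, with 1 at an unadjusted p under 0.05 by all matches and 0 by perfect matches. Groups did not overlap for 6 members by all matches, 5 above and 1 below both WT libraries, against 60.6% of all tested miRNAs (30.8% above, 29.9% below). By perfect matches 3 of 13 were above and 0 below, against 60.3% without overlap among all tested (27.4% above, 32.9% below). The median log2 fold change was -0.033 over the 16 members and 0.0056 over all 442 miRNAs.

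let-7c stood at 145595 and 136717 CPM of perfect matches in WT and 147338 and 145731 in TghuTNF. The log2 fold change was 0.054 ± 0.12 (SE), with a 95% interval of -0.23 to 0.33 (edgeR adjusted p = 0.81). Both TghuTNF libraries lay just above both WT libraries, by less than the gap between the WT libraries. let-7b stood at 96006 and 89638 CPM in WT and 93165 and 86009 in TghuTNF, with a log2 fold change of -0.051 and an interval of -0.35 to 0.24. let-7a stood at 49670.1 and 44130.2 CPM in WT and 49404 and 46239 in TghuTNF, with a log2 fold change of 0.028 and an interval of -0.29 to 0.34. For let-7a and let-7b the genotypes overlapped. These 3 intervals lie within 1 on the log2 scale, the size of a 2-fold change, on either side.

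let-7f stood at 38737 and 29891 CPM of perfect matches in WT and 33400.3 and 29349 in TghuTNF. Its log2 fold change was -0.13 ± 0.17 (SE), with an interval of -0.51 to 0.25, and WT replicate 1 was the highest library. By all matches, where its total is close to that of let-7a, the log2 fold change was -0.049.

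let-7i was the member nearest to a call. It stood at 7365 and 8295 CPM of all matches in WT and 9711 and 10928 in TghuTNF, so both TghuTNF libraries were higher. The log2 fold change was 0.40 ± 0.16 (SE, 95% interval 0.054 to 0.74), a 1.32-fold difference that did not pass (edgeR unadjusted p = 0.027, adjusted p = 0.12). By perfect matches it stood at 7204 and 8471 CPM in WT and 9741 and 10518 in TghuTNF, with a log2 fold change of 0.37 ± 0.16 (SE; edgeR adjusted p = 0.16). The adjusted p ranged from 0.056 to 0.52 over the 12 alternatives for all matches and from 0.12 to 0.71 over the 11 for perfect matches. With upper quartile scaling the log2 fold change by perfect matches was 0.096, and the median over all miRNAs then was -0.28. With each library left out in turn the log2 fold change by all matches stayed between 0.28 and 0.48.

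miR-98, whose hairpin lies next to Mirlet7f-2 in Huwe1, was at 172 and 158 CPM of perfect matches in WT and 203 and 204 in TghuTNF. Both TghuTNF libraries were higher, and the log2 fold change of 0.30 ± 0.20 (SE, interval -0.16 to 0.76) did not pass (edgeR adjusted p = 0.36). With upper quartile scaling it was 0.031. let-7f, which the same host gene can give rise to, had a negative log2 fold change, and its reads from chromosomes 13 and X cannot be told apart.

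let-7e was at 8353 and 6777 CPM of perfect matches in WT and 8111 and 5332 in TghuTNF. TghuTNF replicate 2 was the lowest library and WT replicate 2 the next lowest, and the log2 fold change was -0.17 (interval -0.66 to 0.32). Without TghuTNF replicate 1 it was -0.50 and without TghuTNF replicate 2 it was 0.13. let-7g was the steadiest member, at 4319 and 4300.4 CPM in WT and 4454 and 4304 in TghuTNF (log2 fold change 0.023). let-7d was at 2568 and 2387 CPM in WT and 2416 and 2160.3 in TghuTNF (log2 fold change -0.11, interval -0.49 to 0.26).

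**Figure D4:**
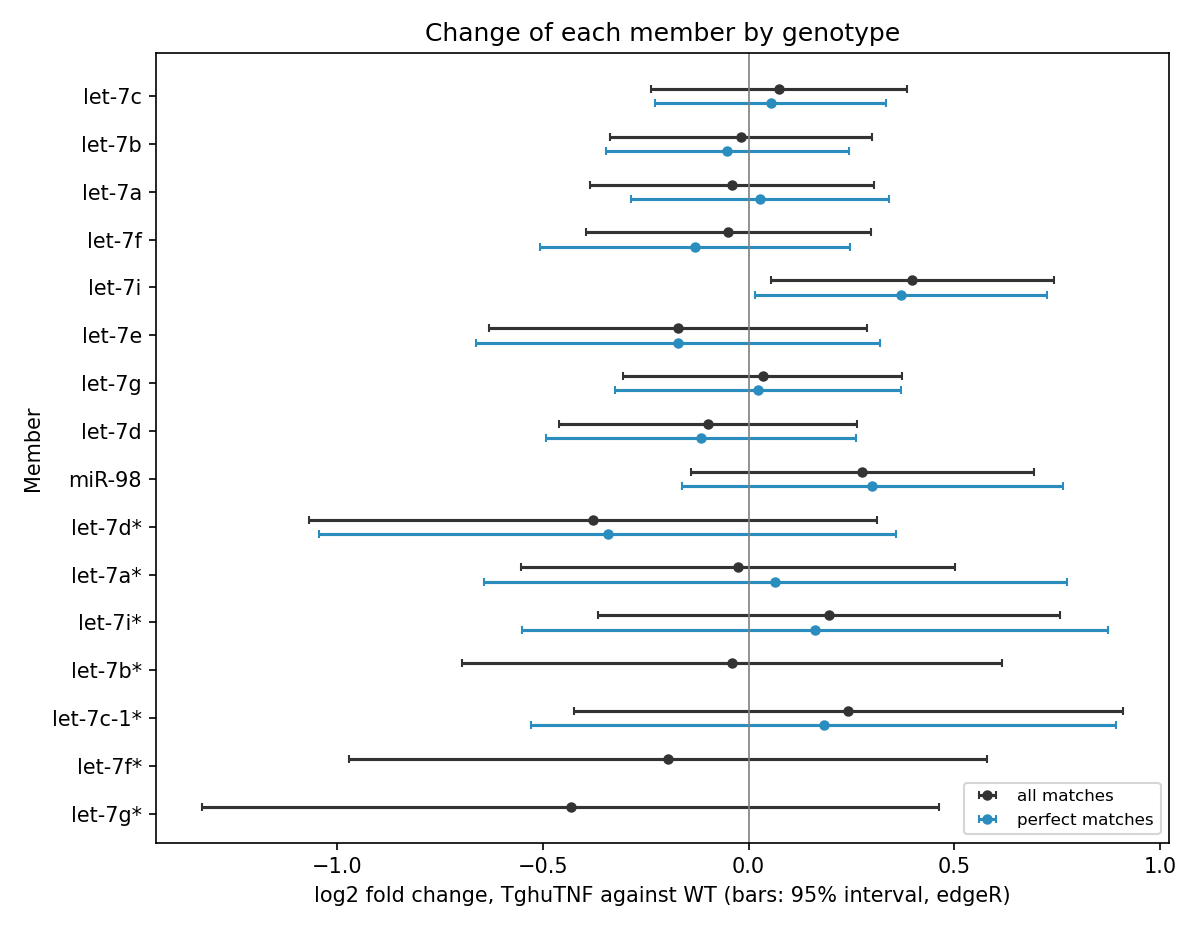
Log2 fold change of each member in TghuTNF against WT with its 95% interval from edgeR, for all matches (black) and perfect matches (blue, for the 13 members past the filter). let-7i is the only member whose interval excludes 0, from 0.054 to 0.74 by all matches, and it did not pass after adjustment. Star arms have the widest intervals.

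Star arms were scarce except for let-7d*. let-7d* made up 5.92% (exact 95% binomial interval 5.70% to 6.15%) of the arms of its hairpin in WT replicate 1, 6.37% (6.18% to 6.56%) in WT replicate 2, 6.53% (6.35% to 6.72%) in TghuTNF replicate 1 and 3.47% (3.31% to 3.64%) in TghuTNF replicate 2. Over the 4 libraries together its share of 5.71% was near the median of 4.65% over 114 hairpins with both arms measured. The star shares of the other 6 hairpins were 0.0031% to 0.15%, all among the 18 lowest of the 114 hairpins. let-7c-1* was set against let-7c from both of its hairpins, which lowers its share. let-7a* and let-7f* were likewise set against main arms from both of their hairpins, whose totals may also hold each other's reads. How far this lowers their shares was not tested.

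The 2 arms of let-7d are shown, 5′ to 3′, with the seed in capitals for the main arm.
let-7d: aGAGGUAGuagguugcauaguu
let-7d*: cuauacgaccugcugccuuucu
let-7d* stood at 153 and 149 CPM of all matches in WT and at 159 and 73.6 in TghuTNF. The value of TghuTNF replicate 2 was low, while TghuTNF replicate 1 was the highest of the 4 libraries. With all libraries the log2 fold change was -0.38 ± 0.31 (SE; edgeR adjusted p = 0.45). Without TghuTNF replicate 1, which leaves 1 TghuTNF library that is assumed to vary like the WT ones, it was -1.11 (edgeR adjusted p = 0.00026) and without TghuTNF replicate 2 it was 0.046 (edgeR adjusted p = 0.94), so the sign and the call depend on which TghuTNF culture is kept. By perfect matches it was -0.90 without TghuTNF replicate 1 (edgeR adjusted p = 0.020). The main arm let-7d was at 2045 CPM in TghuTNF replicate 2 and 2189 to 2435 CPM in the other libraries by all matches.

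The remaining star arms were low. By all matches, let-7a* was at 19.1 and 18.5 CPM in WT and 18.3 and 18.7 in TghuTNF, and let-7i* at 13.7 and 11.9 against 13.8 and 15.5. let-7b* was at 6.69 and 5.03 against 6.19 and 5.15, and let-7c-1* at 4.02 and 3.71 against 5.07 and 4.04. let-7f* was at 2.01 and 2.28 against 2.10 and 1.64, and let-7g* at 1.40 and 1.25 against 1.01 and 0.93. let-7c-1* and let-7i* were higher in both TghuTNF libraries and let-7g* lower, and none passed (edgeR adjusted p 0.51 to 0.65 for these 3).

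Perfect matches were nearly missing for 3 star arms. let-7b* had 0 or 1 perfect matches among 110 to 171 matches per library, let-7f* 0 or 1 among 33 to 62, and let-7g* 2 to 4 among 21 to 34. They did not pass the filter on perfect matches, so their totals rest on matches with mismatches. let-7c-1* was the opposite case, with 73.6% to 87.1% perfect among 66 to 140 matches. The sequence set that the authors matched to was not stated, and RefSeq lists let-7b* as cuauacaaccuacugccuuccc.

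The relative use of the arms did not pass the test of genotype for any of the 7 let-7 hairpins. limma on the log2 ratio of star to main arm called 0% of the 114 hairpins, and 6 had an unadjusted p under 0.05, of which 0 were let-7 hairpins. The ratio of let-7g changed by -0.47 ± 0.26 on the log2 scale (SE; limma adjusted p = 0.73) and that of let-7d by -0.38 ± 0.36 (limma adjusted p = 0.82). The ratios of let-7g and let-7i were lower in both TghuTNF libraries, against 38.6% of hairpins without overlap in either direction.

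**Figure D5:**
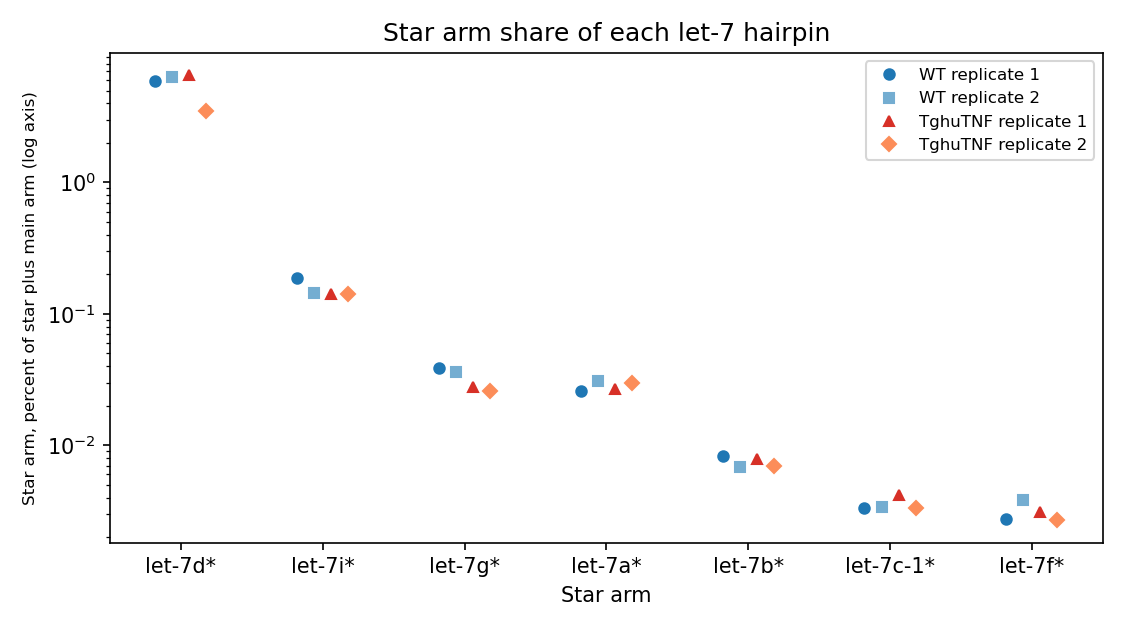
Star arm as percent of star plus main arm for the 7 let-7 hairpins on a log axis, with 1 point per library. let-7d* lies between 3.47% and 6.53%, far above the others, and is lowest in TghuTNF replicate 2.

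The miR-99, miR-100 and miR-125 miRNAs, some of whose hairpins lie beside let-7 hairpins, did not pass either. Mir99a, Mir100 and Mir125a were found within 10000 bases of a let-7 hairpin on the same strand, and no miR-125b hairpin was. Mir99b was not among the neighbours found, so its distance to Mirlet7e is not given here. Of 9 rows of miR-99a, miR-99b, miR-100, miR-125a and miR-125b, 0 rose and 0 fell by all or by perfect matches (edgeR, 0 with an unadjusted p under 0.05), against 13.3% and 13.2% of all tested miRNAs called. Their median log2 fold change was -0.046 by all matches and 0.046 by perfect matches. miR-125a-5p, whose hairpin lies beside Mirlet7e, was at 10099 and 8835 CPM of all matches in WT and 9976 and 6930.0 in TghuTNF. It was lowest in TghuTNF replicate 2, as was let-7e. miR-99b, of the same group of hairpins, was at 17339 and 14431 against 18341 and 16072 and was not lowest there. miR-99a was at 1439 and 1499.6 against 1228 and 1291, miR-100 at 5998 and 6793 against 6380.0 and 6006, and miR-125b-5p at 29489 and 33843 against 41692 and 36959, the last with a log2 fold change of 0.31 ± 0.15 (SE; edgeR adjusted p = 0.20). miR-125a and miR-125b, and miR-99a and miR-100, are also near copies whose reads may be shared.

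The profile of the summed main arms over the 4 libraries was 352625 and 322470 CPM of perfect matches in WT and 348233 and 329845 in TghuTNF. Among 106 other miRNAs with a mean of at least 100 CPM, miR-1198, miR-28 and miR-423-3p lay nearest to it. Their Euclidean distances on centred log2 CPM over 4 libraries were 0.055, 0.10 and 0.12, against a median of 0.39. WT replicate 1 and TghuTNF replicate 1 were the higher libraries for the family, as for miR-423-3p and miR-1198 (miR-1198 at 220.4 and 202 CPM in WT, 221 and 199 in TghuTNF). miR-28 was instead lowest in TghuTNF replicate 1 (145 and 137 CPM in WT, 134 and 138 in TghuTNF). A short distance thus did not mean the same order of libraries.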

How the data were processed

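Small RNA of 4 cultures was sequenced, 2 WT and 2 TghuTNF. Per the file headers, the authors matched reads of length 37 to 707 mouse mature miRNAs with mimap 3d, allowing at most 2 mismatches with a hash length of 9. The deposited values are raw counts of matches per miRNA, and the other deposited column splits nearly all of them into whole-number counts with 0, 1 and 2 mismatches (0.0112% to 0.0149% per library were in no class). How adaptors were trimmed, which miRBase release and build were used and how mimap treats a read that matches more than 1 miRNA are not given in the labels or headers. A read may be counted for several let-7 members, and perfect matches were analysed beside all matches.

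Counts were filtered with filterByExpr, scaled with TMM and tested two-sided in edgeR 4.0.16 (R 4.3.3) by quasi-likelihood, genotype as the only term, threshold 0.05 after Benjamini-Hochberg adjustment over all miRNAs tested. CPM are per 1000000 matches or perfect matches. limma 3.58.1 was used for log2 arm ratios and log2 odds of a perfect match (pseudocount 0.5). Tests were tested on simulated data. Alternatives were DESeq2 1.42.0, other scalings and filters, leaving out each library and a replicate block. Sequences were matched by name to RefSeq (GRCm38.p6). This worked for 14 of 16 rows, since let-7a* and let-7f* could be either of 2 copies. Members, partners and markers were chosen with earlier results of these data known. Every member row was named, plus the main arms of partners and the 3 nearest profiles. Neither pair of replicates was a duplicate (chi-square per degree of freedom 532 and 553).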

Additional observations from a re-analysis of the deposited data

How the results depend on the processing

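Calls for the members kept their side of the threshold under every alternative except 1. Without TghuTNF replicate 1, edgeR called 1 member, let-7d*, by all and by perfect matches, so leaving out each library gave 0 to 1 members called. That fit called 153 of 449 miRNAs by all and 93 of 390 by perfect matches, a larger share than 1 of 16 or 1 of 13 members. Leaving out a library gave 0 called for arm ratios, shares of perfect matches and partners. With a replicate block 0 members were called by any of these tests. The shared numbers do not pair the cultures per the labels, and the deviations of same-numbered libraries correlated at -0.088.

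Many log2 fold changes near 0 changed sign. By all matches, leaving out each library gave -0.18 to 0.11 for let-7a, -0.14 to 0.052 for let-7b, -0.25 to 0.17 for let-7b*, -0.010 to 0.37 for let-7c-1*, -1.11 to 0.046 for let-7d*, -0.56 to 0.065 for let-7e, -0.19 to 0.11 for let-7f and -0.048 to 0.066 for let-7g. By perfect matches it gave -0.058 to 0.14 for let-7a, -0.16 to 0.28 for let-7a*, -0.11 to 0.032 for let-7b, -0.022 to 0.38 for let-7c-1*, -0.90 to 0.085 for let-7d*, -0.50 to 0.13 for let-7e, -0.31 to 0.095 for let-7f and -0.046 to 0.37 for let-7i*. The log2 arm ratio moved from -0.12 to 0.13 for let-7a, -0.16 to 0.12 for let-7b, -0.018 to 0.32 for let-7c-1, -0.86 to 0.095 for let-7d and -0.39 to 0.073 for let-7f.

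Upper quartile scaling moved the median log2 fold change of all miRNAs to -0.10 by all matches and -0.28 by perfect matches. Under it, all matches gave -0.037 for let-7c and -0.075 for let-7g, and perfect matches gave -0.24 for let-7a, -0.21 for let-7a*, -0.22 for let-7c, -0.093 for let-7c-1*, -0.25 for let-7g and -0.11 for let-7i*. By perfect matches it also lowered let-7i to 0.096 (edgeR adjusted p = 0.71) and miR-98 to 0.031, and put let-7b at -0.32 (edgeR adjusted p = 0.069), with 3 members at an unadjusted p under 0.05 and 0 called. With a mean CPM of at least 100, let-7b was at 0.0053 by all and 0.022 by perfect matches, and with no filter at 0.0071 by perfect matches. With 0 or 1 mismatch only, let-7a was at 0.020, let-7a* at 0.13, let-7b at 0.012, let-7b* at 0.21 and let-7f at 0.0044. The cause of these changes was not tested.

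Counted by all matches, which raise let-7a and let-7f, the mean parts of the family in WT and TghuTNF were 19.3% and 18.6% for let-7a, 22.3% and 21.8% for let-7b, 33.4% and 34.8% for let-7c, 0.67% and 0.62% for let-7d, 19.2% and 18.4% for let-7f, 1.02% and 1.04% for let-7g and 0.078% and 0.094% for miR-98. The family without let-7f held 28.1% and 28.4% of all matches, an alternative chosen after seeing the data.

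Over all miRNAs, 59 calls by all matches became 93 with no filter, 153 without TghuTNF replicate 1 and 14 once only miRNAs averaging 100 CPM or more were tested. The 50 calls by perfect matches became 30 without WT replicate 1, 21 without WT replicate 2, 93 without TghuTNF replicate 1 and 18 among miRNAs averaging 100 CPM or more, and upper quartile scaling turned 19 higher and 31 lower calls into 13 and 48. With 2 cultures a genotype, changes of the size seen for let-7i (1.32-fold) did not pass, and the 21 to 62 matches per library limit the precision of let-7f* and let-7g*.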
